A study of Mus musculus with 8 samples.

Results

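The change of the knockout effect between 12 and 30 weeks of age was described in pancreatic lymph nodes of Deaf1 knockout mice (genotype Deaf1-Knock out) on the BALB/c strain. On each array the RNA of 1 knockout mouse carried Cy5 and the pooled RNA of wild-type littermates, matched in age, carried Cy3. The 12-week and 30-week groups had 3 knockout mice each, set against pools of 3 wild-type mice, and 2 arrays of 4-week-old mice against pools of 2 entered the estimate of the spread. The labels name no treatment, no array had the dyes swapped, and no wild-type mouse was set against a pool. Differences between the ages are therefore also differences between pools, and the spread of the wild-type mice is in no test. The quantity compared was the log2 ratio of knockout over pool, and a difference is the mean ratio at 30 weeks minus the mean ratio at 12 weeks. Members were autosomal genes whose 3 ratios at one age did not overlap the 3 ratios at the other. They numbered 4600 of the 17648 autosomal genes with a value on all 6 arrays, or 26.1%, out of 18389 genes tested in all. The ratio was higher at 30 weeks for 2256 of them and lower for 2344.

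Deaf1 is a DNA-binding transcription factor with a SAND domain, the domain family that also includes Aire, the regulator through which thymic epithelium displays proteins of other tissues to developing T cells. In the lymph node draining the pancreas, stromal cells also make proteins of other tissues, and Deaf1 has been linked to that display. The node itself holds mostly B and T lymphocytes, with dendritic cells, macrophages, stromal cells and vessels. Interferons act on all of these cells and switch on a shared set of antiviral genes.

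The 6 arrays of 12 and 30 weeks had 58.8% to 71.5% of probes well above background in the knockout channel and 60.8% to 62.7% in the pool channel, and no spot was saturated. The arrays were not alike within an age. Across genes, the ratios of 12-week replicate 2 correlated with those of replicates 1 and 3 at 0.16 and 0.07, while replicates 1 and 3 correlated at 0.58. At 30 weeks replicate 2 correlated with replicates 1 and 3 at 0.38 and 0.36, while replicates 1 and 3 correlated at 0.88. The Y-linked gene Ddx3y reached 9.05 to 9.17 (log2 level) in the pool at 12 weeks but 6.02 to 6.10 in that at 30 weeks, and 12-week knockout replicate 2 differed from its pool by −3.89 in this gene. By Ddx3y and Xist, the sex of the mice differed between the pools of the 2 ages and between that mouse and its pool. The knockout mice differed between the ages too. In their channel Xist had a log2 level of 7.31 and 7.88 in 12-week replicates 1 and 3, 12.9 in 12-week replicate 2 and 13.1 to 13.3 at 30 weeks. Sex thus changed with age in all but 12-week knockout replicate 2, and the 2 cannot be told apart. X- and Y-linked genes are not among the members, which does not separate sex from age in the others. Among the 26 measured genes of pancreatic acinar cells, the digestive-enzyme cells beside the node, the median log2 level in the pool channel was 6.80 to 6.83 at 12 weeks and 13.5 to 14.9 at 30 weeks. Their median ratio at 30 weeks was −4.05, 3.85 and −4.47 in replicates 1 to 3. No acinar gene was called with all arrays, and all 26 were called lower without 30-week replicate 2. The part of sex and of acinar RNA in the results below was not tested. Counts without both replicates 2 are given below for all calls and for the interferon, TRiC, V segment and chromosome 19 groups, and values without them for several other lists. The 3 arrays of 12 weeks shared a slide with replicate 1 of 30 weeks, and replicates 2 and 3 of 30 weeks shared another. The probe chosen for Deaf1 gave ratios of 0.34, 0.35 and 0.32 at 12 weeks and 0.14, 0.00 and 0.15 at 30 weeks, so on these 6 arrays it was not lower in the knockout. At 4 weeks it gave −0.22 and −0.12. The other Deaf1 probe gave 0.12, 0.15 and 0.18 at 12 weeks and −0.74, 3.11 and −0.62 at 30 weeks, so the probes differ in direction (−0.24 and 0.43). Where the deleted part of the gene lies relative to these probes is not given in the sources used here, and they check nothing.

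The difference between the ages passed limma's test (Benjamini-Hochberg adjusted p under 0.05) for 143 genes, or 0.778% of those tested. Of these, 59 (0.321%) had a higher ratio at 30 weeks and 84 (0.457%) a lower one. Autosomal were 137 of the 143, and the ages did not overlap for any of the 137. Non-overlap and the test use the same 6 ratios, so neither supports the other. The median absolute difference was 0.80 over the called genes, 0.32 over all members and 0.15 over all genes tested. The calls hung on single arrays: 212 genes were called without 12-week replicate 2, 2758 without replicate 1 and 0 without replicate 3. Without 30-week replicates 1, 2 and 3 in turn the counts were 3, 158 and 1, and without either 4-week array 1. With both replicates 2 left out, 332 genes were called, among them 88 of the 143. Every one of the 143 kept its sign in each of these settings. For the 137 autosomal genes this was fixed in advance, since ages that do not overlap keep their order when arrays are left out. At an unadjusted p under 0.05 there were 3883 genes. The split between directions also moved with the scaling: with arrays centred on their median and no loess, 7 genes were called, all lower, and non-overlapping autosomal genes were 1212 higher and 4206 lower. That setting moved the median difference of all genes from 0.01 to −0.15.

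**Figure D1:**
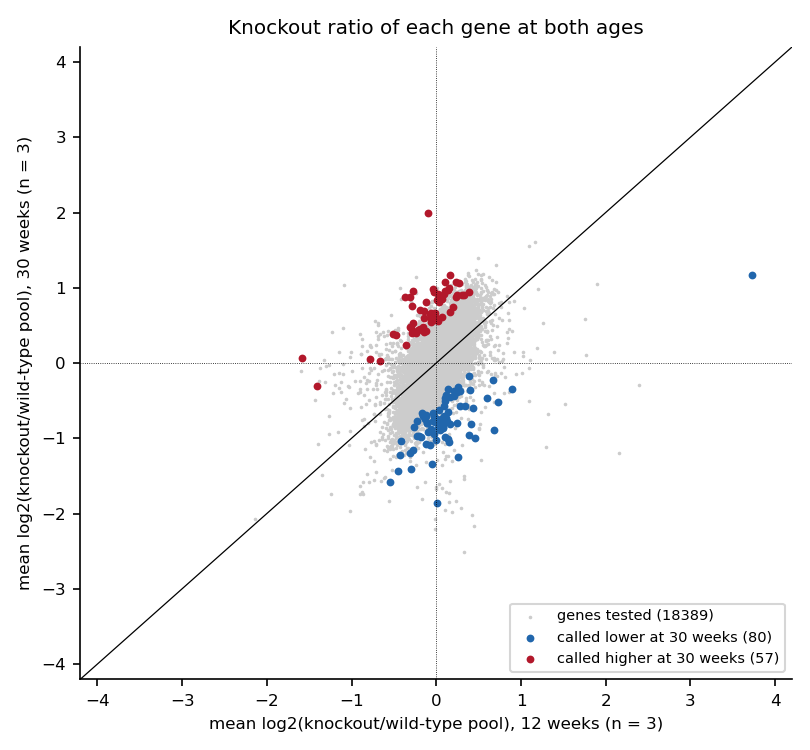
Mean log2 ratio of knockout over wild-type pool at 12 weeks (x) and 30 weeks (y), 1 point per gene, with the 57 autosomal genes called higher at 30 weeks in red, the 80 called lower in blue and all 18389 tested in grey. The line marks equal ratios, and most called genes lie near 0 on the 12-week axis and away from 0 on the 30-week axis.

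The 57 called members with a higher ratio at 30 weeks had median ratios of 0.07, −0.13 and −0.09 on the 3 arrays of 12 weeks and 0.69, 0.63 and 0.71 on those of 30 weeks. The 80 called members with a lower ratio had medians of −0.09, 0.10 and 0.15 at 12 weeks and −0.73, −0.80 and −0.79 at 30 weeks. The mean ratio was farther from 0 at 30 weeks for 50 of the 57 and 73 of the 80, beside 69.8% of all genes tested. The mean of the 4-week arrays lay nearer the 12-week mean for 40 of the 57 and 76 of the 80, beside 61.6% of all genes tested. On all 6 arrays the ages lay on opposite sides of 0 for 21 of the 57 and 23 of the 80. The shares were 10.8% of the higher members, 13.1% of the lower members and 3.11% of all genes tested. Called members were chosen on these same ratios, which raises such counts.

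The largest fall was that of Gdpd3, a glycerophosphodiester phosphodiesterase that makes lysophosphatidic acid (probe at mm8 chr7:126562154-126562327). Its ratios were 3.71, 3.98 and 3.50 at 12 weeks and 1.24, 1.12 and 1.14 at 30 weeks, so it stood above the pool on all 6 arrays, and less so at 30 weeks. The difference was −2.56 ± 0.27 (SE, n = 3 and 3, adjusted p = 0.035 by limma). Saa3, an acute-phase protein made by activated macrophages and stroma, had ratios of −0.17, −0.05 and 0.26 at 12 weeks and −1.24, −2.23 and −2.10 at 30 weeks. It was near its pool at 12 weeks and below it on every 30-week array, with a difference of −1.87 ± 0.24 (adjusted p = 0.035 by limma). Saa3 was the single called gene of the 16 measured on the complement and acute-phase list, beside 0.778% of all genes tested.

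Several genes that fell went from above the pool to below it. Adam33, a membrane metalloprotease of stromal cells, had ratios of 1.09, 0.83 and 0.76 at 12 weeks and −0.26, −0.46 and −0.33 at 30 weeks. Tatdn2, a gene of the TatD nuclease family, had ratios of 0.63, 0.77 and 0.80 and then −0.51, −0.16 and −0.88. H2-Q9, a non-classical MHC class I gene, had ratios of 0.60, 0.29 and 0.29 and then −0.40, −1.32 and −1.15. Its near-identical neighbours in the H2-Q cluster may share its probe, so its identity is uncertain. The differences of these 3 genes were −1.24 ± 0.15, −1.25 ± 0.19 and −1.35 ± 0.22, with adjusted p of 0.035, 0.039 and 0.045 by limma. At 4 weeks Adam33 gave 2.39 and 1.90, Tatdn2 −0.79 and −0.35 and H2-Q9 −0.33 and −0.10. The other probes of Adam33 gave −0.10 with overlap and −0.35 without. Plac9a differed by −1.07 ± 0.15 and Ppil1, a peptidyl-prolyl isomerase of the spliceosome, by −1.03 ± 0.16. Plac9a too has a near-identical copy in the genome. Xdh, the xanthine dehydrogenase of purine breakdown, had ratios of 0.15, 0.38 and 0.49 at 12 weeks and −0.58, −0.59 and −0.56 at 30 weeks. It differed by −0.92 ± 0.10. The 3 values of Xdh at 30 weeks lay closer together than those at 12 weeks.

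Btla, an inhibitory receptor of B and T cells, had ratios of −0.28, 0.20 and −0.13 at 12 weeks and −0.93, −1.14 and −1.19 at 30 weeks. The difference was −1.02 ± 0.15 (adjusted p = 0.038 by limma). Rabggtb, a subunit of the enzyme that attaches lipid anchors to Rab proteins, fell by 0.96 ± 0.12 on the log2 scale, with ratios of −0.37 to 0.01 at 12 weeks and a lowest ratio of −1.18 at 30 weeks. Its 2 other probes also gave lower ratios at 30 weeks without overlap, by −0.88 and −0.25. Spon1, an extracellular matrix protein, differed by −0.90 ± 0.13 on the probe used. Its other probe moved the opposite way, by 1.33, and the mean of both probes was 0.21, so its direction is unsettled. Samples were bulk tissue, in which fewer cells of a type and less RNA per cell cannot be told apart.

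The largest rise was that of Rab6b, a small GTPase of Golgi transport best known from neurons (probe at mm8 chr9:103043359-103043418). Its ratios were 0.13, −0.20 and −0.21 at 12 weeks and 2.09, 1.19 and 2.70 at 30 weeks. The knockout was near the pool at 12 weeks and above it on every 30-week array, with a difference of 2.09 ± 0.36 (adjusted p = 0.046 by limma). Its other probe gave 0.85 without overlap. Itga8, an integrin subunit of smooth muscle and fibroblasts, had ratios of −1.35, −2.08 and −1.33 at 12 weeks and 0.10, 0.03 and 0.09 at 30 weeks. It was below the pool at 12 weeks and level with it at 30 weeks, a difference of 1.66 ± 0.21 (adjusted p = 0.035 by limma), and its other probe gave 1.51 without overlap. The 4-week ratios of Itga8 were −0.44 and 0.09. Cpxm2, a secreted carboxypeptidase-like protein, was also nearer the pool at 30 weeks (−0.56, −0.02 and −0.36) than at 12 weeks (−1.24, −1.65 and −1.35). Its 4-week ratios were −0.42 and −0.11, so both genes were lowest at 12 weeks.

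Gucy1a1, a subunit of the nitric oxide receptor guanylate cyclase, had ratios of −0.64, −0.23 and −0.24 at 12 weeks and 0.74, 0.57 and 1.31 at 30 weeks. Mmp14, a membrane-bound collagen-cutting metalloprotease, had ratios of −0.02, −0.55 and −0.26 and then 1.10, 0.63 and 1.13. Both genes lay below the pool on all 3 arrays of 12 weeks and above it on all 3 of 30 weeks. Their differences were 1.24 ± 0.20 and 1.23 ± 0.19 (adjusted p of 0.040 and 0.039 by limma). The other probe of Mmp14 gave −0.30 with overlap, and of the 3 other probes of Gucy1a1 1 rose without overlap, by 1.01. Aire, the regulator named above (probe at mm8 chr10:77433207-77433266), had ratios of −0.39, −0.69 and −0.45 at 12 weeks and 0.68, 0.30 and 0.16 at 30 weeks. The ages lay on opposite sides of 0, with a difference of 0.89 ± 0.15 (adjusted p = 0.044 by limma), and the 4-week ratios were −0.19 and −0.32.

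The remaining genes named among the rises were Ankib1, a ubiquitin ligase (1.04 ± 0.18), the pseudogene Zfp862-ps (1.01 ± 0.16) and Slc6a6, the taurine transporter (1.01 ± 0.13). They also held Nexn, an actin-binding protein (0.90 ± 0.15), and Vldlr, a lipoprotein receptor (0.90 ± 0.13). Cfap74, a protein of cilia, passed the test with a value of 0.93 that is no measured fold. Its probe was well above background on the 3 knockout samples of 30 weeks and on 0 of 3 in the pool at 30 weeks and in either channel at 12 weeks, and its value ran from 0.77 to 4.43 over the alternatives. Klk1b27, of the kallikrein protease family, gave 0.85 ± 0.14, and its near-identical relatives make its identity uncertain. Insl6, an insulin-like peptide, gave 0.84 ± 0.13 and Gigyf2, a repressor of translation, 0.84 ± 0.10. The other probe of Vldlr gave 0.12 with overlap, and those of Ankib1 gave 0.07 with overlap and 0.31 without. The other probe of Slc6a6 gave −0.26 with overlap, and the 4 other probes of Gigyf2 gave −0.25 to 0.09. Eif4g3, a translation initiation factor of the eIF4G family, did not pass the test (−0.14 ± 0.10, adjusted p = 0.47 by limma). Its ratios were −1.27 to −1.39 at 12 weeks and −1.37 to −1.68 at 30 weeks, which overlap. Among called genes with an absolute difference over 1, the narrowest gaps between the ages were 0.52 in Ppil1 and 0.53 in Ankib1, and no called autosomal gene had ages that overlapped. Each of the 31 called genes picked by the naming rule given below lost its call in 3 to 7 of the 8 settings that left out 1 array. Each kept its sign in all 8, which was fixed in advance because the rule asks for ages that do not overlap.

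**Figure D2:**
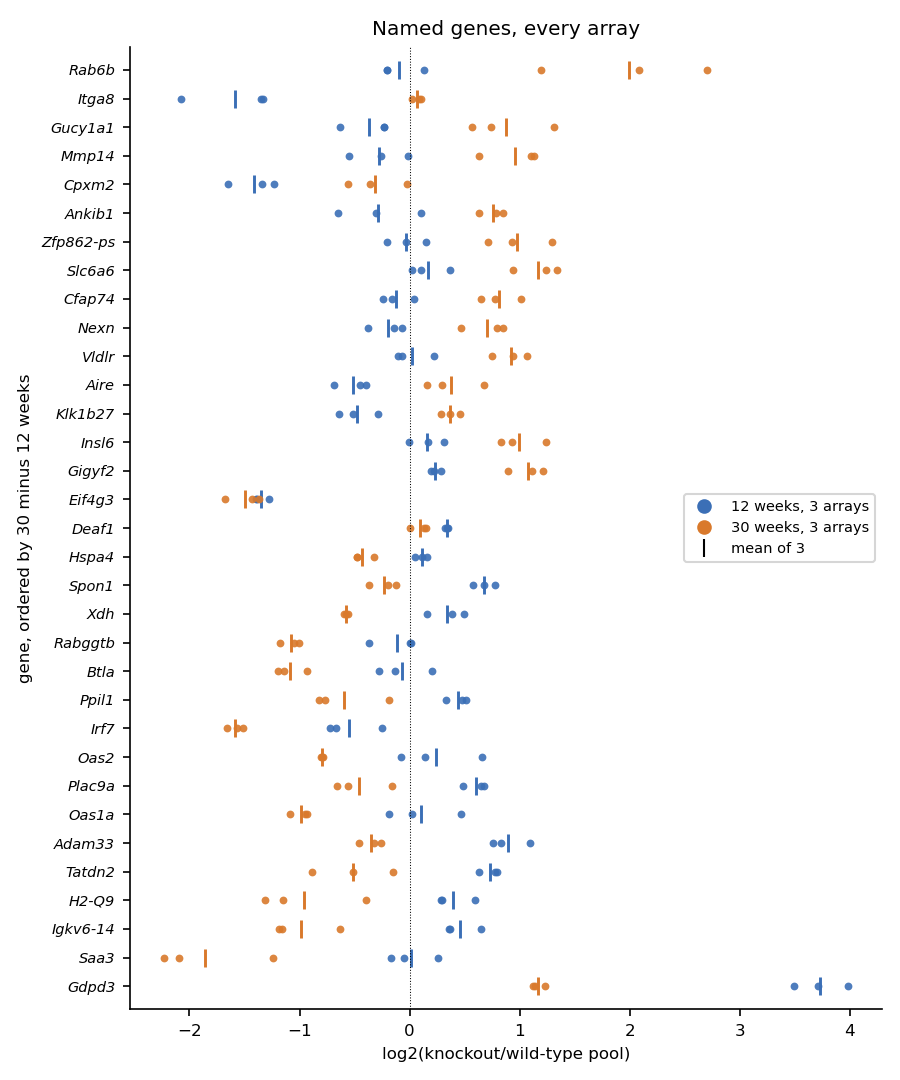
Log2 ratio of knockout over wild-type pool (x) of each named gene on the 3 arrays of 12 weeks (blue) and 3 of 30 weeks (orange), with vertical ticks at the means of 3. The ages overlap only for Eif4g3, and Gdpd3 stands apart with ratios of 3.50 to 3.98 at 12 weeks.

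Several genes switched on by interferons had lower ratios at 30 weeks. Of the 32 measured on the list of the type I and II interferon response, 3 were called lower (Oas1a, Oas2 and Irf7) and none higher. Over all genes tested 0.457% were called lower and 0.321% higher. The ages did not overlap for 16 lower and 1 higher member, where 13.2% and 12.8% of all genes did so. The median difference of the list was −0.49, beside 0.01 over all genes tested. The median ratio of the list was 0.16, 0.24 and −0.02 on the arrays of 12 weeks and −0.28, −0.24 and −0.42 on those of 30 weeks. Without both replicates 2, 4 members were called lower and none higher, beside 235 and 97 of the 18389 genes tested. There, 18 lower and 4 higher members did not overlap. Non-overlap is more frequent with fewer arrays. In that setting 4371 autosomal genes were lower and 4484 higher without overlap, beside 2344 and 2256 with all arrays. With the slide as a block none was called, and the median was −0.42.

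Oas1a and Oas2 make 2′-5′ oligoadenylates, the signal that turns on RNA cutting in infected cells. Oas1a had ratios of 0.02, 0.47 and −0.18 at 12 weeks and −0.95, −0.93 and −1.08 at 30 weeks, a difference of −1.09 ± 0.18 (adjusted p = 0.045 by limma). Oas2 had ratios of 0.66, 0.14 and −0.07 and then −0.80, −0.79 and −0.79, a difference of −1.04 ± 0.17 (adjusted p = 0.045 by limma). Both were spread around the pool at 12 weeks and tightly below it at 30 weeks. Irf7, the transcription factor that amplifies type I interferon production, was below its pool at both ages, with ratios of −0.67, −0.25 and −0.73 at 12 weeks and −1.66, −1.52 and −1.57 at 30 weeks. The difference of Irf7 was −1.03 ± 0.15 (adjusted p = 0.036 by limma). Its probe lies 36.8 kb from that of Deaf1 on chromosome 7 in the mm8 coordinates of the files.

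Other members with lower ratios did not pass the test. Mx2, an antiviral GTPase, gave −1.36 ± 0.34 (adjusted p = 0.090 by limma). Ifit3, which binds viral RNA in complex with its relatives, gave −1.10 ± 0.37 (adjusted p = 0.15 by limma), and Isg15, the ubiquitin-like modifier, −0.87 ± 0.16 (adjusted p = 0.055 by limma). The 12-week spread of Ifit3 came from replicate 2, at 1.02 beside −0.20 and −0.37. Gbp5, a guanylate-binding protein induced by interferon gamma, had a higher ratio at 30 weeks without overlap (0.49 ± 0.10, adjusted p = 0.067 by limma). Outside the list, and chosen after their values were seen, the interferon-induced genes Samhd1, Ifi204 and Trim25 were called lower by −0.77 ± 0.12, −0.75 ± 0.11 and −0.63 ± 0.11.

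Interferon-stimulated genes often carry the binding motif of IRF proteins before their start. The motif was searched as GAAA and GAAA with any 2 bases between them, on both strands, so that TTTC and TTTC with 2 bases between also count, in windows of 250 bases before to 50 after the start of each gene (RefSeq, GRCm38.p6). It stood in 3.99% of all 27025 windows, in 17 of the 25 windows found for the list, and in 7 of the 13 for members lower at 30 weeks without overlap. The stretches around it in these 7 are shown because they hold the regulatory motif found in these lower members, 5′ to 3′ on the strand of the gene and upstream of the start, with the motif in capitals. Capitals in Oas1a and Isg15 run over motifs that overlap.
Gbp2: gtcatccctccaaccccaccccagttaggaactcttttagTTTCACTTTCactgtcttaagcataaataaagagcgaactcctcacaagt
Ifit3: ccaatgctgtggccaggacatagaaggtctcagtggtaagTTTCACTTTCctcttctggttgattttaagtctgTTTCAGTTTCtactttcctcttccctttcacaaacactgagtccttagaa
Isg15: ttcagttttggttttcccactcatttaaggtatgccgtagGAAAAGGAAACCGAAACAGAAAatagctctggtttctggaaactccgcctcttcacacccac
Oas1a: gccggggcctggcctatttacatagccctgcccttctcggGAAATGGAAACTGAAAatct
Oas3: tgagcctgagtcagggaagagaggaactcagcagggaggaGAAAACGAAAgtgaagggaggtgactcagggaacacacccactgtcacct
Rsad2: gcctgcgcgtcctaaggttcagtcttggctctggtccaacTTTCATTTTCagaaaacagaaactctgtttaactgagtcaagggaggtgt
Trim30a: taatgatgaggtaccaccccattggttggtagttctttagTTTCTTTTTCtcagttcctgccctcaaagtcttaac
The stretches lie at chr3:142620564-142620653, chr19:34583333-34583456, chr4:156200835-156200936, chr5:120907526-120907585, chr5:120777685-120777774, chr12:26456523-26456612 and chr7:104465194-104465269, in the order shown. Gbp2 and Ifit3 are on the plus strand and the other 5 on the minus strand. In Oas1a the first motif starts 20 bases before the start of the gene, and in Ifit3 156. Among members that overlapped or rose, 10 of 12 windows held the motif, so the motif was not more frequent in the lower members.

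Subunits of TRiC, the ring-shaped chaperonin that folds actin, tubulin and other proteins in the cytosol, had lower ratios at 30 weeks. This group was chosen after its values were seen, and it takes in Cct6b beside the 8 general subunits. Of the 9 measured, 4 were called lower (Tcp1, Cct2, Cct3 and Cct8), none was called higher, and 8 were lower without overlap, with a median difference of −0.63. Of all genes tested, 0.457% were called lower and 13.2% were lower without overlap. Cct3 had ratios of −0.46, −0.38 and 0.01 at 12 weeks and −1.04, −1.32 and −1.09 at 30 weeks, a difference of −0.87 ± 0.14 (adjusted p = 0.041 by limma). Cct8 had ratios of −0.09, −0.10 and 0.14 and then −0.71, −0.74 and −0.89, a difference of −0.77 ± 0.10 (adjusted p = 0.035 by limma). Cct5 was the exception, with ratios of 0.75, 0.14 and 0.44 at 12 weeks and 0.51, 0.43 and 0.44 at 30 weeks. The second probe of Cct2 gave −0.82 without overlap, while the second probe of Tcp1 gave 0.21 and that of Cct3 −0.06, both with overlap. Without both replicates 2, 7 of the 9 were called lower, beside 235 of the 18389 genes tested. With the slide as a block none was called and the median was −0.61.

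Of the 27 measured on the list of heat-shock proteins and chaperones, which leaves out the Cct genes, 1 was called lower, Hspa4, a chaperone of the Hsp110 family (−0.54 ± 0.09, adjusted p = 0.041 by limma). Over all genes tested 0.457% were called lower. Hspa4 had ratios of 0.16, 0.05 and 0.12 at 12 weeks and −0.33, −0.48 and −0.48 at 30 weeks. Of its 3 other probes, 1 was lower at 30 weeks without overlap (−0.41) and the other 2 gave 0.19 and 0.17 with overlap. The list as a whole was uneven at 12 weeks, with median ratios of 0.62, −0.68 and 0.41, and 5 members (18.5%) were lower at 30 weeks without overlap, beside 13.2% of all genes. Its median difference of −0.28 was −0.76 without both replicates 2 and 0.04 without 12-week replicate 1.

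**Figure D3:**
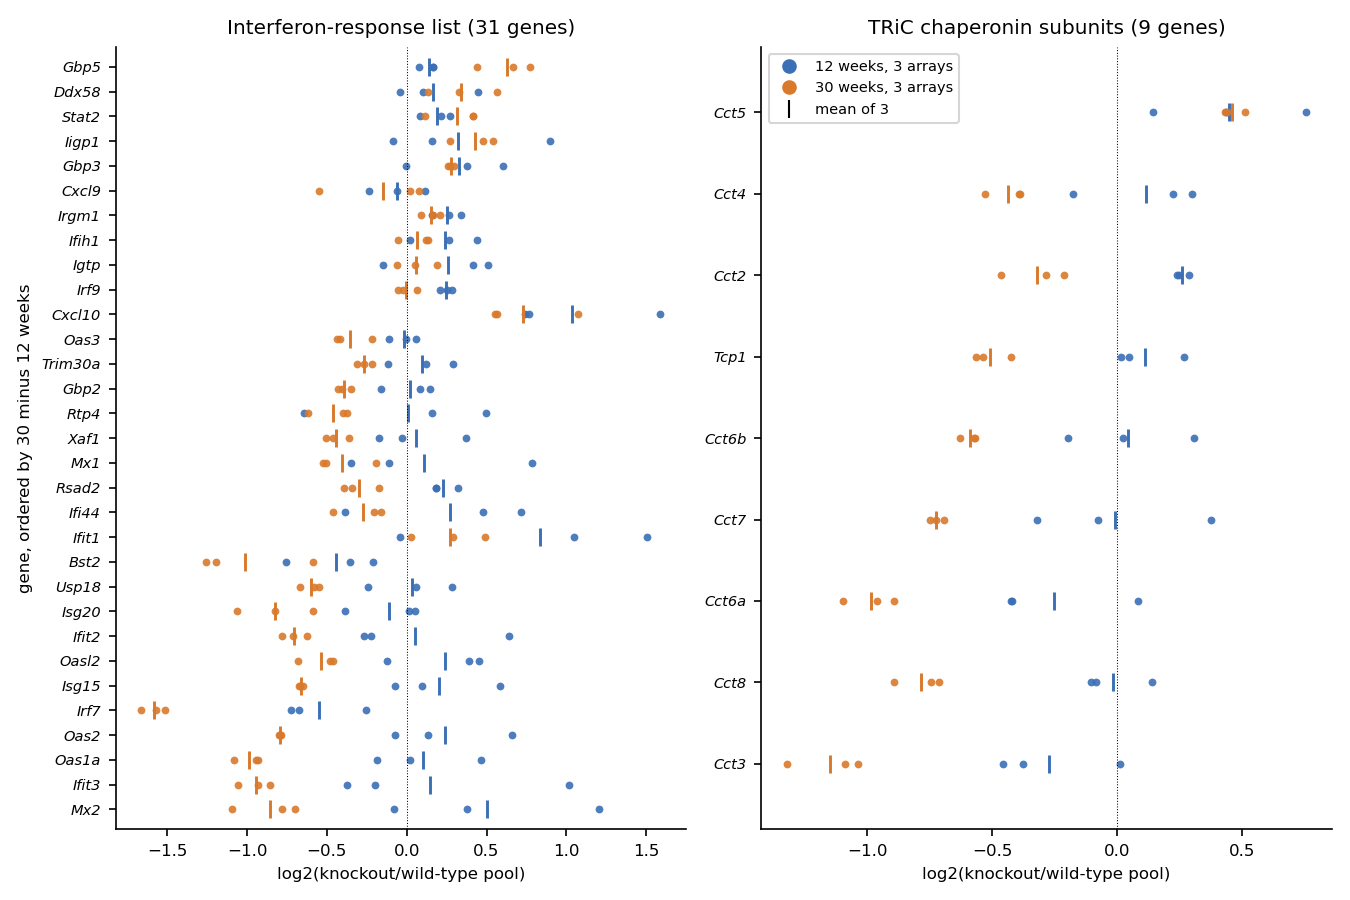
Log2 ratio of knockout over wild-type pool (x) of 31 genes of the interferon-response list (left) and the 9 TRiC genes (right) on the 3 arrays of 12 weeks (blue) and 3 of 30 weeks (orange), with vertical ticks at the means of 3. In 16 interferon genes and 8 TRiC genes every orange point lies left of every blue one.

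Variable segments of the immunoglobulin genes, the parts that B cells join to build an antibody's binding site, also had lower ratios at 30 weeks. The group was taken by position after the values were seen. Of 50 features on the V segment side of the heavy chain locus (mm8 chr12:114036075-116447895), 23 were called lower and none higher, and they are all 23 genes called on chromosome 12. The ages did not overlap for 39 of the 50, each lower at 30 weeks, and the median difference was −0.83. Over all genes tested the shares were 0.457% called lower and 13.2% lower without overlap. The median ratio of the 50 was −0.18, 0.05 and 0.02 on the arrays of 12 weeks and −0.74, −0.88 and −0.77 on those of 30 weeks, so that the ages did not overlap in the medians. V segments resemble one another, and a probe can bind the RNA of several, so the 50 are not independent and the identity of each is uncertain.

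Of the 31 features in the part farther from the constant genes, 19 were called and 28 did not overlap, with a median of −0.85. Of the 19 in the nearer part, 4 were called and 11 did not overlap, with a median of −0.79. A difference between these parts was not tested. On the constant and joining side none of 14 features was called and 6 were lower without overlap (median −0.33). Ighv1-54, a segment of the large J558 family, gave −0.89 and was called. Among V segments of the kappa light chain on chromosome 6, 4 of 42 were called lower and 19 were lower without overlap (median −0.58). Igkv6-14 fell most of these, from ratios of 0.37, 0.36 and 0.65 to −1.16, −0.63 and −1.19, a difference of −1.45 ± 0.16 (adjusted p = 0.035 by limma). Without both replicates 2, 16 of the 50 heavy chain features and 7 of the 42 kappa features were called lower. Of the 18389 genes tested, 235 were called lower in that setting. With the slide as a block none of either group was called, with medians of −0.76 and −0.61.

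On the list of general B-cell genes, none of 18 was called, 1 was lower without overlap (13.2% of all genes were) and the median was −0.19. That median was −0.07 without 12-week replicate 2, 0.00 without both replicates 2 and −0.06 with the slide as a block. Of 15 plasma-cell genes none was called, 3 were lower without overlap and the median was −0.17, or −0.31 without both replicates 2.

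**Figure D4:**
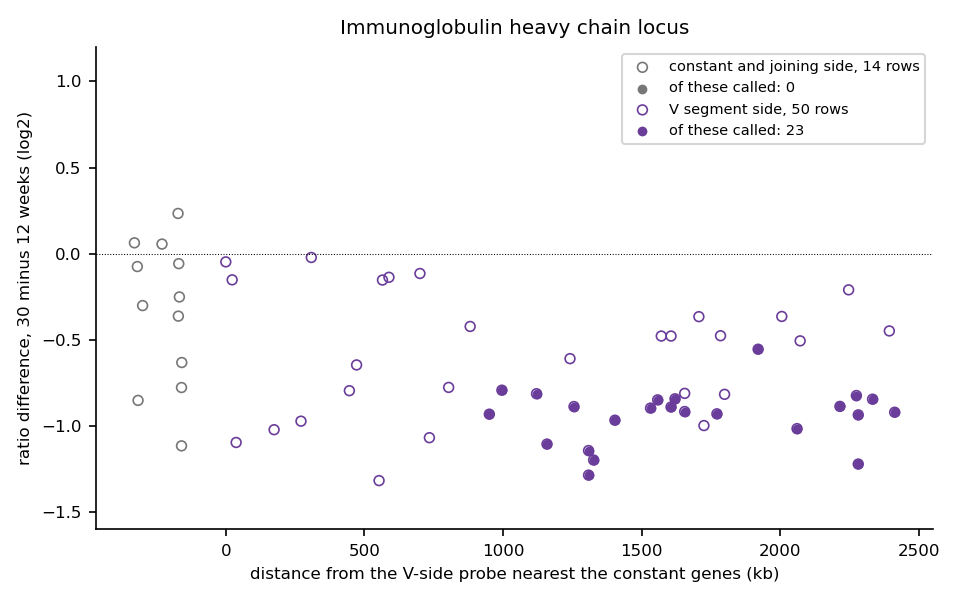
Difference of the log2 ratio, 30 minus 12 weeks (y), of features at the immunoglobulin heavy chain locus against the distance in kb from the V-side probe nearest the constant genes (x), with filled points for genes called. All 23 called points lie on the V segment side between −0.56 and −1.29, and none of the 14 on the constant and joining side is filled.

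Levels in each channel give the parts of the differences. For the 57 called members that rose, the median knockout level was 0.58 higher at 30 weeks on the log2 scale and the median pool level 0.17 lower. For the 80 that fell, the median knockout level fell by 0.41 and the median pool level was 0.39 higher. The change was larger in the knockout than in the pool for 46 of the 57 and 39 of the 80, beside 68.8% of all genes tested. Gdpd3 changed by −0.18 in the knockout and by 2.38 in the pool, and Saa3 by 0.98 in the knockout and 2.85 in the pool. Igkv6-14 changed by −0.26 and 1.19. Over the 50 heavy chain V features the median change was 0.01 in the knockout and 0.80 in the pool, and over the 42 kappa features 0.04 and 0.52. Itga8 changed by −0.26 in the knockout and −1.92 in the pool. In contrast, Rab6b changed by 2.25 in the knockout and 0.16 in the pool, Aire by 0.83 and −0.06, and Tatdn2 by −1.09 and 0.16. Over the 9 TRiC genes the median was −0.85 in the knockout and −0.20 in the pool. Of the 3 called interferon genes, Oas1a changed by −0.37 and 0.72, Oas2 by −0.63 and 0.40, and Irf7 by −0.71 and 0.32. A single pool stood for each age, so these levels have no test.

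**Figure D5:**
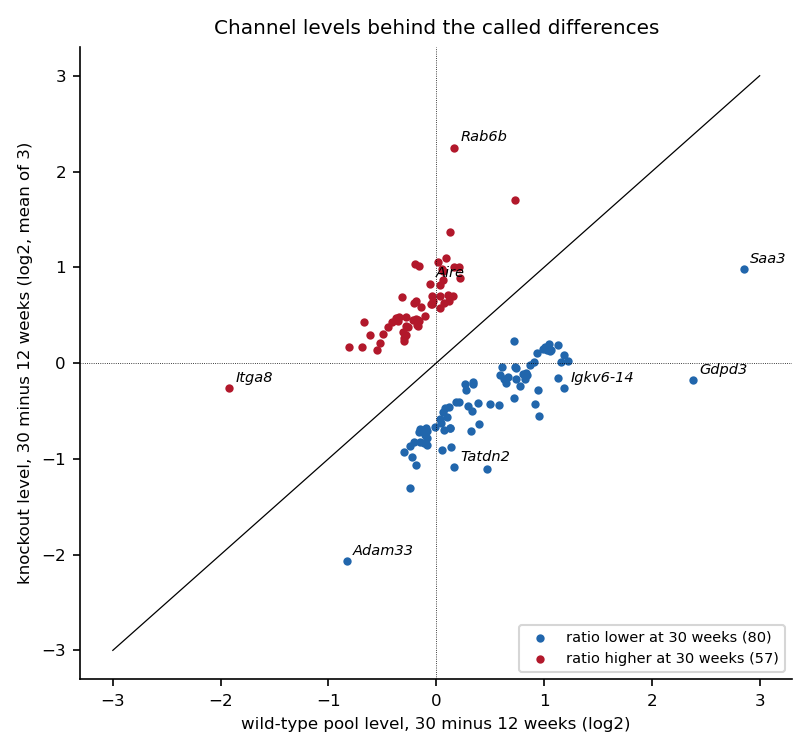
Change of the normalised log2 level from 12 to 30 weeks in the wild-type pool (x) and in the knockout (y, mean of 3 mice), 1 point per autosomal gene called, red where the ratio was higher at 30 weeks and blue where it was lower. The line marks equal change, and Gdpd3 and Saa3 lie far to the right, at 2.38 and 2.85 in the pool.

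Of the 37 gene lists, the other 34 held no called gene, and several had members that did not overlap. Of all genes tested, 12.8% were higher and 13.2% lower without overlap, and list counts near these shares are no result about the list. Among 30 genes of DNA replication and mitosis 13 were lower at 30 weeks without overlap and none higher, with a median difference of −0.23. Their median ratio was 0.45, 0.22 and 0.17 at 12 weeks and 0.15, −0.03 and 0.02 at 30 weeks. That median difference was −0.09 with the slide as a block, and without 12-week replicate 1 5 members were higher and 14 lower without overlap. Without that array 4411 autosomal genes were higher and 4350 lower without overlap, beside 2256 and 2344 with all arrays. Top2a, the topoisomerase of dividing cells, gave −0.67 ± 0.14 (adjusted p = 0.070 by limma) and Rrm1, a subunit of ribonucleotide reductase, −0.53 ± 0.12 (adjusted p = 0.074 by limma). Of 20 fat-cell genes 6 were higher without overlap and none lower, with a median of 0.95, the largest positive median among the 37 lists. Plin1, which coats lipid droplets, gave 1.57 ± 0.42 (adjusted p = 0.10 by limma) and Lpl, the lipoprotein lipase, 1.17 ± 0.27 (adjusted p = 0.080 by limma). The fat-cell median ratio was −1.06, −0.83 and −0.02 at 12 weeks and 0.04, −0.15 and 0.50 at 30 weeks. Replicate 3 of 12 weeks thus lay among the 30-week values, and without it 17 of the 20 were higher without overlap. Without both replicates 2, 9 were, with a median of 0.89. Of autosomal genes, 2256 were higher without overlap with all arrays. The count was 2813 without 12-week replicate 3 and 4484 without both replicates 2.

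In the antigen-presentation list of MHC class I, 4 of 14 genes were lower without overlap and 1 was higher. Tap2 and Tap1, the peptide transporter, gave −0.96 (adjusted p = 0.061 by limma) and −0.73 (adjusted p = 0.11 by limma). Of 33 proteasome genes 11 were lower and 5 higher without overlap, and of 25 aminoacyl-tRNA synthetases 8 were lower and 1 higher. Of 42 oxidative phosphorylation genes 14 were higher and 3 lower without overlap, while the median of the list was 0.02. Of 12 regulatory T-cell genes 5 were lower and 2 higher, with Foxp3, their defining factor, at −0.35 ± 0.11 (adjusted p = 0.14 by limma). Of 17 cytotoxic and NK-cell genes 5 were higher and 1 lower, with Klrd1, an NK receptor subunit, at 1.05 ± 0.22 (adjusted p = 0.069 by limma). With or without overlap, 7 of the 17 differences were below 0. The median of that list was 0.19, and it was below 0 in 2 of 23 alternatives.

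A run on chromosome 19 held 5 called rises, chosen after the values were seen. Between Vldlr and Plgrkt (mm8 chr19:27316649-29414981) 17 features were measured, and Vldlr, Plpp6, Cdc37l1, Insl6 and Plgrkt were called higher. Vldlr and Plgrkt, themselves called, set the ends of the run, so its count of calls was partly fixed by that choice. Of all genes tested, 0.321% were called higher and 13.2% were lower without overlap. Plpp6, a lipid phosphatase, had ratios of −0.19, −0.29 and −0.37 at 12 weeks and 0.44, 0.26 and 0.50 at 30 weeks, and Plgrkt, a plasminogen receptor, −0.23, −0.09 and −0.26 and then 0.53, 0.33 and 0.51. The other 12 features were not called, 3 of them were lower without overlap, and the median of the 17 was 0.03. Jak2, the kinase between these genes, gave 0.29 ± 0.14. Without both replicates 2, 5 of the 17 were called higher, beside 97 of the 18389 genes tested. With the slide as a block none was called. By chromosome, the share of tested genes called was 3.31% on chromosome 12, 1.72% on 14 and 1.23% on 19. It was 1.15% on 6, 1.03% on 3, 1.02% on 16 and 0.718% on 7, where Deaf1 lies, beside 0.778% of all genes tested. The 8 calls on chromosome 19 include the 5 of this run.

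The other probes of a gene did not enter the choice of members. Of 80 other probes of 50 called members, 57 moved the same way (71.3%), and 32 did so without overlap. Over all genes tested 57.2% of 9083 other probes moved the same way, and 6.90% without overlap. Other probes share the arrays and the pools with the chosen one.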

How the data were processed

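RNA of pancreatic lymph nodes was hybridised to Agilent mouse arrays of 2 colours, 8 arrays in all (n = 2, 3 and 3 at 4, 12 and 30 weeks), from 1 µg of total RNA per the labels' protocols. Per the file headers, the deposited scanner output gives brightness (intensity) of each spot and its local background, processed signals and a log10 ratio from Feature Extraction 9.5.3.1 (4 weeks) or 10.2.1.3. The deposited series matrix holds log2 ratios. Its software is not given in the sources used here, and both ratio sets served as alternatives.

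With limma 3.58.1 in R 4.3.3, intensities were corrected with normexp (offset 50) and loess-normalised within each array; control spots had weight 0, and flagged outliers were left out. Probes well above background in one channel on all arrays of an age were kept (27472), and the brightest stood for its gene. Names came from RefSeq (GRCm38.p6) and coordinates from the files (mm8); no annotation of that build was used, so exons and UTRs are not given. limma with 1 mean per age over 8 arrays (5 residual and 3.39 prior degrees of freedom) gave the contrast, adjusted over 18389 genes. Channel levels are loess-normalised with Aquantile scaling. In data simulated with the spread of these arrays over 18363 genes, 26.9%, 68.7% and 98.5% of differences of 0.5, 1 and 2 were called. Of the unchanged genes 10.2% did not overlap. Errors were drawn independently for each gene and array, while departures of the real arrays are shared by many genes, so these rates need not hold for them. The number of arrays limits the precision, and p-values measure the spread between these mice only.

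Members and lists were chosen with earlier results of these data known. Named are the 15 largest rises and 15 largest falls among called, non-overlapping autosomal genes with plain names, the 10 with the strongest opposite signs, up to 4 called genes per list, Deaf1, Aire and Eif4g3, and genes at the border. One gene of the interferon list is not reported singly here. Others are named in the text as list members or as chosen after their values were seen.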

Additional observations from a re-analysis of the deposited data

Results flagged for a closer look

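The difference of the knockout ratio between 30 and 12 weeks passed the test for each of the 31 called genes picked by the naming rule given above. Called genes named only as chosen after their values were seen are not listed again. Those that fell, with the difference on the log2 scale, were Gdpd3 (−2.56), Saa3 (−1.87), Igkv6-14 (−1.45), H2-Q9 (−1.35), Tatdn2 (−1.25), Adam33 (−1.24), Oas1a (−1.09), Plac9a (−1.07), Oas2 (−1.04), Irf7 (−1.03), Ppil1 (−1.03), Btla (−1.02), Rabggtb (−0.96), Xdh (−0.92), Spon1 (−0.90) and Hspa4 (−0.54). Those that rose were Rab6b (2.09), Itga8 (1.66), Gucy1a1 (1.24), Mmp14 (1.23), Cpxm2 (1.10), Ankib1 (1.04), Zfp862-ps (1.01), Slc6a6 (1.01), Cfap74 (0.93), Nexn (0.90), Vldlr (0.90), Aire (0.89), Klk1b27 (0.85), Insl6 (0.84) and Gigyf2 (0.84). The other probes of Spon1, Slc6a6 and Mmp14 moved the opposite way. The value of Cfap74 is no measured fold, since its probe was well above background in the knockout channel at 30 weeks and on 0 of 3 arrays in the pool at that age and in either channel at 12 weeks.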

How the results depend on the processing

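The main processing called 143 genes and left 4600 autosomal genes without overlap. By limma at an adjusted p under 0.05, fewer genes were called with the scanner's log ratio (5, 4 of them higher), median centring without loess (7, none higher), scale normalization (66), plain background subtraction (1, lower), the series matrix (2, both higher) and the 6 arrays of 12 and 30 weeks alone (1). With array weights 6200 were called. With the slide as a block 0 were called (1462 at an unadjusted p under 0.05). That setting rests on 30-week replicate 1 against the 12-week arrays of its slide, and 9196 autosomal genes then did not overlap. With the replicate block 0 were called (3672 at an unadjusted p under 0.05). The replicate numbers did not pair the mice, since deviations of same-numbered arrays correlated at −0.03, 0.00 and 0.02, and 12-week replicate 1 correlated best with 30-week replicate 3 (0.14). Leaving out 1 array gave 0 to 2758 calls and 4600 to 8761 genes without overlap, and leaving out both replicates 2 gave 332 and 8855. With fewer arrays at an age any gene meets non-overlap more often, so these counts and the 9196 are not comparable with 4600. With no background correction, GC adjustment, no filter, the stricter filter or the mean of probes, 105 to 165 genes were called. Of the 143, those tested kept their sign in all alternatives, except 1 gene under the mean of probes. Where arrays were only left out, non-overlap fixed the sign of the 137 autosomal genes in advance. Reversed were Spon1 (0.21) and Deaf1 (0.10) under the mean of probes and Eif4g3 (0.13) under scale normalization. The cause was not tested. Over the 31 called genes flagged above and the 23 alternatives, 403 of 712 comparisons lost the call and 308 kept it. The medians of the interferon, V segment and TRiC groups stayed below 0 and that of the fat-cell list above 0 in all 23 alternatives. The 6 arrays alone, the replicate block and leaving out either 4-week array only repeated the main medians. The V segment and TRiC groups were chosen after their values were seen. Most heavy chain V and TRiC members did not overlap, so leaving out arrays could not turn those 2 medians.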
